A study of Mus musculus with 16 samples.

Results

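The proteasome is the barrel-shaped protease that degrades ubiquitin-tagged proteins, and the mRNAs of its subunits, caps, activators and assembly chaperones were followed here from whole mouse muscle onto ribosomes. The members were the non-control probes whose gene name began with Psma to Psmg followed by a number, with the brightest probe kept for each gene. This gave 49 gene names, represented by 63 probes, out of 34650 names on the array. Of the 49, 46 were bright enough to be tested. The other 3 were Psma8, a testis form of an alpha subunit, Psmb11, the beta subunit of thymic epithelium, and Psmc3ip, a recombination factor that carries a similar name and is not a subunit. Psma8 and Psmb11 were not well above background on any of the 16 arrays, and Psmc3ip was so on 5 of them. No probe was named Psme2. The probes named Psme2b, a near-identical gene, are also assigned to the Psme2 transcript in the array's annotation, so the 2 could not be told apart and the values are given under the name Psme2b.

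The samples came from the gastrocnemius, a calf muscle that the study takes as mixed in fibre type, of 6 animals. Of these, 3 were Eif6+/+ (WT) and 3 Eif6+/- (Het), the latter heterozygous for loss of Eif6. All were male C57BL6 littermates aged 8 to 16 weeks. No restriction of the lost copy to a tissue is given in the labels or methods. Eif6 is an initiation factor that binds the large ribosomal subunit and keeps it apart from the small subunit until translation starts. Each mouse gave total RNA of the whole muscle and polysome RNA, pooled from sucrose gradient fractions with 2 or more ribosomes per mRNA, and WT mice 1 and 2 and Het mice 1 and 3 also gave monosome RNA, from the fraction with a single ribosome. Each of the 16 RNAs was hybridised in 1 colour to its own array. Values below are log2 normalized signals, a difference of 1 being a doubling. Because the arrays were normalized to a common distribution, a value is relative to the other mRNAs of the same RNA sample. The polysome value minus the whole-muscle value of the same mouse is called the loading. Fewer cells of a type and less RNA per cell cannot be told apart in such bulk samples.

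The core of the proteasome is a stack of 4 rings, in which 2 outer rings of alpha subunits (Psma) gate the entrance and 2 inner rings of beta subunits (Psmb) hold the proteolytic sites. Psmb5, Psmb6 and Psmb7 are catalytic, and interferon exchanges them for Psmb8, Psmb9 and Psmb10, which favour peptides suited to antigen presentation. A cap made of a base with 6 ATPases (Psmc) and a lid (Psmd) binds, unfolds and feeds ubiquitinated substrates, while Psme activators open the gate without ubiquitin and Psmf1 binds the core as an inhibitor. In skeletal muscle the system breaks down myofibrillar protein during wasting, and the subunits must be made in matching amounts since each complex holds a fixed number of each.

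What was measured is best seen in the probes themselves. A set of 5 of these 60-base probes are shown because the loading of their genes carries the main contrast in WT muscle, with coordinates on the mm9 build given by the array files. The Psma4 probes read 2 stretches of the same transcript, bases 409 to 468 (chr9:54802741-54804087, plus strand) and bases 643 to 702 (chr9:54804685-54805444, plus strand). Those of Psmb1 (bases 218 to 277, chr17:15630098-15631393, minus strand) and Psmb2 (bases 293 to 352, chr4:126361456-126364299, plus strand) lie early in their transcripts, and that of Psmb5 starts at base 607 (chr14:55233161-55233220, minus strand). All but the Psmb5 probe map to an interval longer than the probe and so cross a splice junction of the mature mRNA. The GC content was 45.0%, 38.3%, 41.7%, 40.0% and 55.0% in the order shown.
Psma4 (409): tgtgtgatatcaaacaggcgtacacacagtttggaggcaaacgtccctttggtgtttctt
Psma4 (643): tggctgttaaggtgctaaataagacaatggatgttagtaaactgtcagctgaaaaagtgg
Psmb1: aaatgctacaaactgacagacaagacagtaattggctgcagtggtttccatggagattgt
Psmb2: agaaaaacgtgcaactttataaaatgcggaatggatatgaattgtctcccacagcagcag
Psmb5: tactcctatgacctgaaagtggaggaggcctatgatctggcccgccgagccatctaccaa

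Promoter sequence from RefSeq (GRCm38.p6), taken as the 250 bases before a gene's start, was found for 41 of the 49 names and not for Psma8, Psmb1, Psmb2, Psmb7, Psmc3, Psmd3, Psmd7 and Psmg2. The element TGACNNNGC, read by Nfe2l1, the factor known to raise subunit transcription when proteasomes fall short, stood on either strand in 5 of the 43 promoter entries of members (11.6%), those of Psmb5, Psmb6, Psmc6, Psmd9 and Psmd12, and in 10.2% of all 32851 promoters. The ETS-type element CCGGAAG stood in 14 entries of 13 member names (32.6%) and in 6.91% of all promoters. The GC box GGGCGG stood in 21 entries (48.8%) and in 32.7% of all, CCAAT in 34.9% and 33.8%, and TTCNNNGAA, bound by interferon-activated factors, in 2 entries, Psmb8 and Psmg1 (4.65%), and in 7.02% of all. The printed promoters are 3, those of the 2 catalytic subunits with the Nfe2l1 element and of Psmc6, chosen for its Het minus WT difference on polysomes. Capitals mark TGACNNNGC and, in Psmc6 only, also CCGGAAG. They lie at chr14:54617996-54618245 (Psmb5, minus strand), chr11:70525107-70525356 (Psmb6, plus strand) and chr14:45329574-45329823 (Psmc6, plus strand). The elements begin 47 bases before the start in Psmb5 and 9 bases before it in Psmb6, both on the gene's strand, and in Psmc6 227 bases before it on the opposite strand, with CCGGAAG 100 bases before the start.
Psmb5: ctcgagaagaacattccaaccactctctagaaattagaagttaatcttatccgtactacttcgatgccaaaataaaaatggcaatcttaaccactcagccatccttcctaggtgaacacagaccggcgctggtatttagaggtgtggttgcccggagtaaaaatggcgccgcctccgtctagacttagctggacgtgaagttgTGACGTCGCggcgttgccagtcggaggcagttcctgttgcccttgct
Psmb6: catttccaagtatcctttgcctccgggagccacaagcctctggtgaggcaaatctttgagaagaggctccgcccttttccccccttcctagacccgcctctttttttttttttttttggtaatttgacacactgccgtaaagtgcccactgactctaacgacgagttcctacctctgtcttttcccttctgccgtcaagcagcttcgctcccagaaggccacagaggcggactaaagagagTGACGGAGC
Psmc6: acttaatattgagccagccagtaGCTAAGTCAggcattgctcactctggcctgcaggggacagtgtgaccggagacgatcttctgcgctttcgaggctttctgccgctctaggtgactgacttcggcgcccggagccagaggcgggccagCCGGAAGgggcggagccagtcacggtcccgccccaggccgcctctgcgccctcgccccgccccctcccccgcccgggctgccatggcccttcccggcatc

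Array brightness differed between the groups. The 75th percentile of the processed signal was 42.3 to 150 on the WT and 13.5 to 33.0 on the Het whole-muscle arrays, 24.1 to 66.1 and 63.1 to 106 on the WT and Het polysome arrays, and 12.7 to 36.4 on the 4 monosome arrays, and no spot was saturated. The polysome and monosome arrays of WT mouse 2 stood apart from those of the other mice, as several members show below. Eif6 itself, read by 1 probe, lay between 8.97 and 9.66 in WT and between 8.21 and 8.40 in Het whole muscle, and between 9.95 and 10.71 against 8.87 and 9.12 on polysomes, with no overlap, so the labels matched the targeted gene. All 8 fibre markers (Acta1, Ckm, Myh4, Myh1, Actn3, Tnnt3, Mb and Mylpf) were well above background on all 16 arrays.

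Proteasome mRNAs made up more of the polysome than of the monosome RNA, relative to other mRNAs. In the 4 mice with both fractions, 45 of the 46 members were higher on polysomes on average, with a median difference of 1.11 (2.17-fold), while the median of all 20251 probes tested was 0.17 and 56.6% of them were higher. The members' median was 0.92 in WT mouse 1, 0.90 in WT mouse 2, 1.32 in Het mouse 1 and 1.43 in Het mouse 3, where the median of all probes lay between 0.06 and 0.33. Of the 46, 43 were higher on polysomes in all 4 mice and 0 were lower in all 4, against 31% and 15.7% of all probes. Among the 39 members well above background on all 16 arrays, 37 were higher in all 4 mice, against 33.5% of the 9154 such probes.

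**Figure D1:**
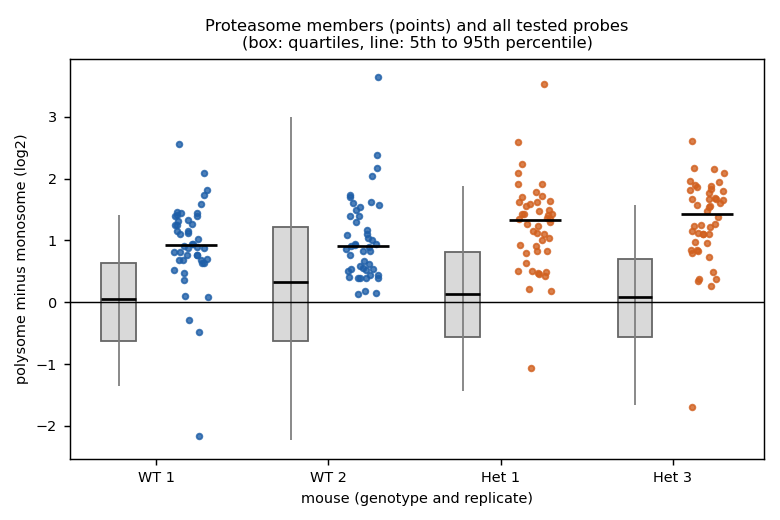
Log2 polysome minus monosome value (y axis) in each of the 4 mice with both fractions (x axis). Points are the 46 proteasome members with their median as a line, and the grey box and line beside them give the quartiles and the outer percentiles of all 20251 probes tested. The members' medians of 0.90 to 1.43 lie above the medians of all probes in every mouse.

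The strength of this contrast rested on few mice. With 4 ratios and Benjamini-Hochberg adjustment over all probes in limma, no member and 0% of all probes passed an adjusted p of 0.05, the smallest adjusted p of a member being 0.0551, while 41 members (89.1%) had an unadjusted p below 0.05, all of them higher on polysomes, against 41.1% of all probes in either direction. The same contrast gave 22 to 41 called members (47.8% to 92.3% of those tested) under 9 of the alternatives tried, where 8.69% to 51.5% of all probes were called and the members' share was the larger in each, and 0 under 4, namely no filter, brightness as a term and leaving out either Het mouse. By class the median difference was 1.02 for the alpha ring, 1.28 for the constitutive beta ring, 1.40 for the ATPases, 1.34 for the lid, 1.06 for the other base subunits, 1.43 for the cap assembly chaperones, 0.92 for the inducible beta subunits, 0.75 for the activators and 0.71 for the core assembly chaperones. The 2 members lowest in this contrast were Psmg4, a core assembly chaperone (-0.65 ± 0.26 SE, n = 4 mice), and Psme3, the nuclear activator (0.05 ± 0.23). At the other end, Psmd14, the deubiquitinase of the lid, and Psmd10, an ATPase chaperone known as gankyrin, were well above background on all 4 polysome and on none of the 4 monosome arrays, so that they were at least 3.55-fold and at least 1.82-fold higher on polysomes.

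Relative to whole muscle, more subunit mRNAs were called higher than lower on WT polysomes. In WT mice the loading of 13 members (28.3%) was higher and of 6 (13%) lower at an adjusted p below 0.05 (limma, 6 mouse ratios), while 10.7% and 10.9% of all 19814 probes tested were called in these directions, so that the share called lower was near that of all probes. The higher group held Psmb3, Psmb4, Psmb5 and Psmb6 of the beta ring, the inducible Psmb9 and Psmb10, the ATPases Psmc1, Psmc3 and Psmc5, the ubiquitin receptor Psmd4, the lid subunit Psmd3, the chaperone Psmg3 and the Psme2b probe. The lower group held the alpha subunit Psma6, the beta subunits Psmb1 and Psmb2, the lid subunits Psmd6 and Psmd14, and Psmf1. In Het mice 8 members were higher, Psmb3, Psmb4, Psmb5, Psmb9, Psmc1, Psmc5, Psmd3 and Psmd4, and 0 were lower, against 3.72% and 4.28% of all probes. All 8 were among the 13 of WT. The ratios of the genotypes come from different arrays, but both calls rest on 1 fit with a shared estimate of the spread and are not independent. In single mice, 19 members had a loading above 0 in all 6 mice and 3 (Psma6, Psmb1 and Psmd14) below 0 in all 6, against 16.1% and 12.5% of all probes.

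These calls depended on the terms of the fit and on which mouse was left out of it. With slide as a term 12 members were called in WT loading (26.1%, against 13.3% of all probes) and 0 in Het loading (against 2.12%). With brightness as a term there were 3 (6.52%, against 4.81%) and 0 (against 0%). In WT loading 19 members were called in all, 5 without WT mouse 1 and 2 without WT mouse 3, 9 without Het mouse 1, 12 without Het mouse 3, and 17 without WT mouse 2, whose polysome array stood apart. In that order the members' shares were 10.9%, 4.35%, 19.6%, 26.1% and 37%, against 8.88%, 4.85%, 11.4%, 13.1% and 17.8% of all probes, so that without WT mouse 1 or 3 the members were near all probes. In Het loading 8 were called (17.4%, against 8% of all probes), and 0 when any 1 of the 3 Het mice was left out, where at most 0.00504% of all probes were called. Without WT mouse 1 there were 4 (8.7%, against 6.24% of all probes) and without WT mouse 3 there was 1 (2.17%, against 3.19%), so that the members were near all probes. Without WT mouse 2 there were 14 (30.4%, against 16.9%). No called member changed direction under any alternative tried. In the same WT loading, 3 of 8 fibre markers were called lower and 0 higher (median -0.75), while 3 of 5 fibroblast markers (median 0.98), 2 of 3 adipocyte (median 0.79), 4 of 11 immune (median 0.15), 1 of 3 erythroid (median 1.20) and 0 of 4 endothelial markers (median 0.39) were called higher and 0 lower. The part of these cell types in the loading of the members was not tested.

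**Figure D2:**
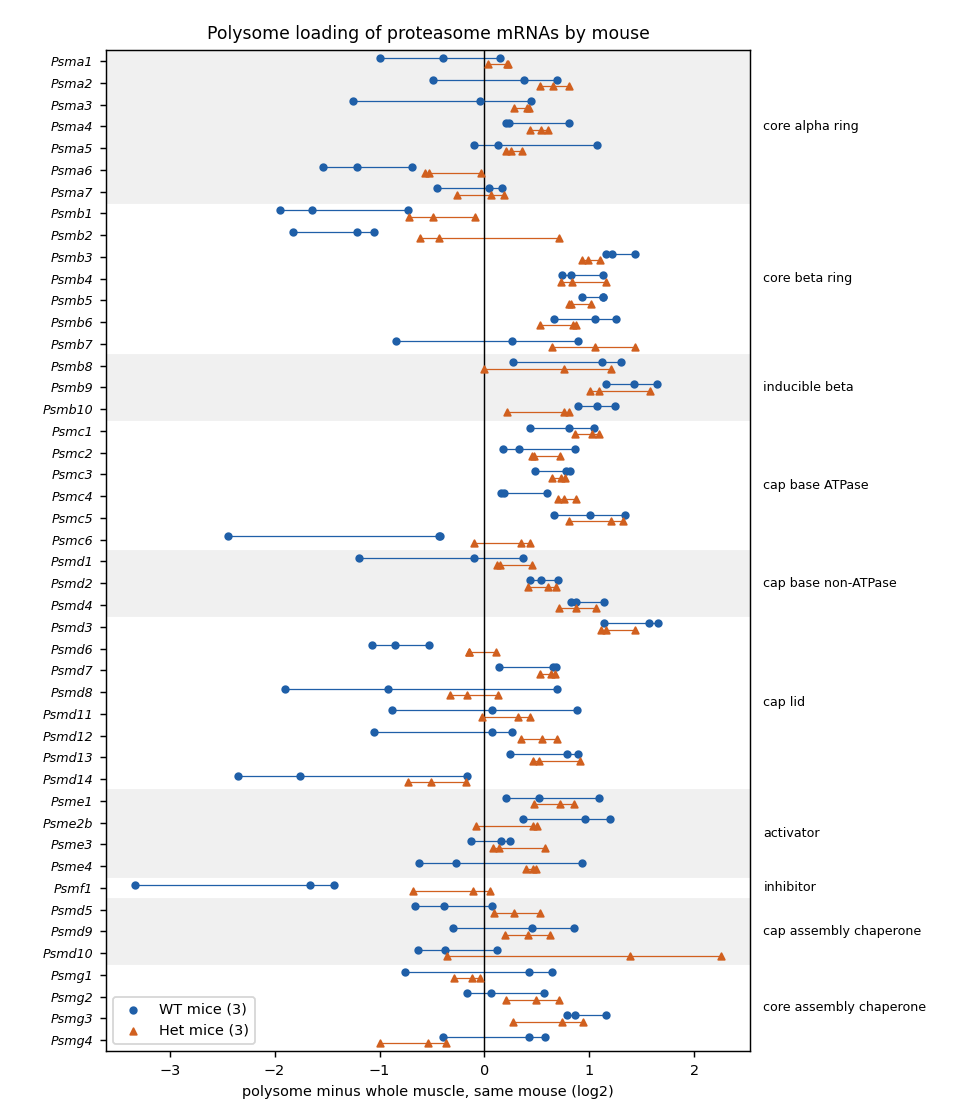
Loading, the log2 polysome minus whole-muscle value of the same mouse (x axis), of each tested member (y axis, grouped by class). Each of the 3 WT mice is a blue circle and each of the 3 Het mice an orange triangle, with lines spanning the mice. Psma6, Psmb1, Psmb2, Psmc6, Psmd8, Psmd14 and Psmf1 (dim on WT polysomes) reach values below -1.5 in WT mice, and no Het mouse has a member below -1.

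The lowest loadings were those of WT mice. Among the 43 members well above background on all whole-muscle and polysome arrays, a restriction chosen after the data were seen, the lowest lay at -1.95 (Psmb1), -2.44 (Psmc6) and -2.35 (Psmd14) in the 3 WT mice and at -0.53 (Psma6), -0.73 (Psmd14) and -0.99 (Psmg4) in the 3 Het mice. The SD of the loading over these 43 was 0.965, 0.865 and 0.827 in WT and 0.440, 0.492 and 0.524 in Het. The SD of the loading over the 46 members was 1.08, 0.90 and 0.87 in the WT mice and 0.46, 0.53 and 0.59 in the Het mice, so that the genotypes did not overlap. Over all probes the same SD was 0.97, 1.29 and 0.89 in WT and 0.70, 0.98 and 0.90 in Het, where the genotypes did overlap. The members' median loading was 0.26 in WT and 0.53 in Het, and that of all probes 0.04 and 0.13.

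Probes read different stretches of their transcripts. The 6 members called lower in WT loading had probes that start at bases 218 to 890 (median 407.5), the 13 called higher at bases 616 to 2037 (median 978), and the other 27 at bases 430 to 4962 (median 1030). Across the 46 members, which share the same arrays, the Spearman correlation of probe start with WT loading was 0.23, and across all probes with a position it was -0.04. In the Het minus WT difference in loading, the 12 members with probes near the start, within 700 bases (a limit chosen with the data known), had a median of 0.86 and the other 34 a median of 0.10, against 0.04 and 0.25 over all probes with a position. In Psma4 the 2 probes shown above parted in WT mice. The probe at base 643 gave loadings of 0.21, 0.81 and 0.23 in WT and 0.54, 0.44 and 0.60 in Het, and the probe at base 409 gave -1.06, -0.04 and -0.70 in WT and 0.15, -0.15 and 0.11 in Het. In Psmb5 they agreed, with 1.13, 1.13 and 0.93 in WT for the probe at base 811 and 0.70, 1.12 and 1.11 for the printed one at base 607. Of 12 pairs of tested probes for the same gene, 7 had the same sign in WT loading, 11 in Het loading and 10 in the Het minus WT difference in loading. In the Het minus WT difference 8 of the 12 had the same sign in whole muscle and 7 on polysomes. The part of probe position in the split was not tested.

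Turning to the roles, the catalytic subunits Psmb5 and Psmb6 were higher on polysomes than in whole muscle in every mouse. Psmb5, which cuts after hydrophobic residues, lay at 12.43, 12.35 and 12.51 in WT and 12.47, 12.50 and 12.37 in Het whole muscle, and at 13.55, 13.48 and 13.44 in WT and 13.30, 13.30 and 13.39 in Het polysomes. Every polysome array was above every whole-muscle array, and on polysomes the Het values lay just below the WT values. Its loading was 1.06 ± 0.19 (SE, adjusted p = 0.0145) in WT and 0.88 ± 0.19 (adjusted p = 0.0399) in Het, corresponding to 2.09-fold and 1.84-fold. Its monosome values were 12.11 and 12.95 in WT and 11.80 and 11.73 in Het.

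Psmb6, which cuts after acidic residues, lay at 11.93, 12.11 and 12.20 in WT and 12.25, 12.42 and 12.24 in Het whole muscle. It was the single member with all Het above all WT values there, by 0.22 ± 0.19 (adjusted p = 0.826). On polysomes it reached 13.18, 13.17 and 12.87 in WT and 13.09, 12.95 and 13.11 in Het, which overlapped, and on monosomes 11.44 and 12.33 in WT and 11.61 and 11.32 in Het. Its loading was 0.99 ± 0.22 (adjusted p = 0.0223) in WT and 0.75 ± 0.22 (adjusted p = 0.0738) in Het, a difference of -0.24 ± 0.30 between the genotypes.

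Psmb7, which cuts after basic residues, behaved otherwise. It lay at 10.74, 10.41 and 9.82 in WT and 10.24, 10.06 and 9.74 in Het whole muscle, and at 9.89, 10.67 and 10.71 in WT and 10.89, 11.12 and 11.18 in Het polysomes. All Het polysome values were above all WT values, while the genotypes overlapped in whole muscle. Its loading was 0.10 ± 0.35 in WT and 1.05 ± 0.35 in Het, and neither these values nor their difference of 0.94 ± 0.49 (adjusted p = 0.374) passed. Its monosome values were 8.65 and 10.26 in WT and 8.98 and 9.41 in Het.

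**Figure D3:**
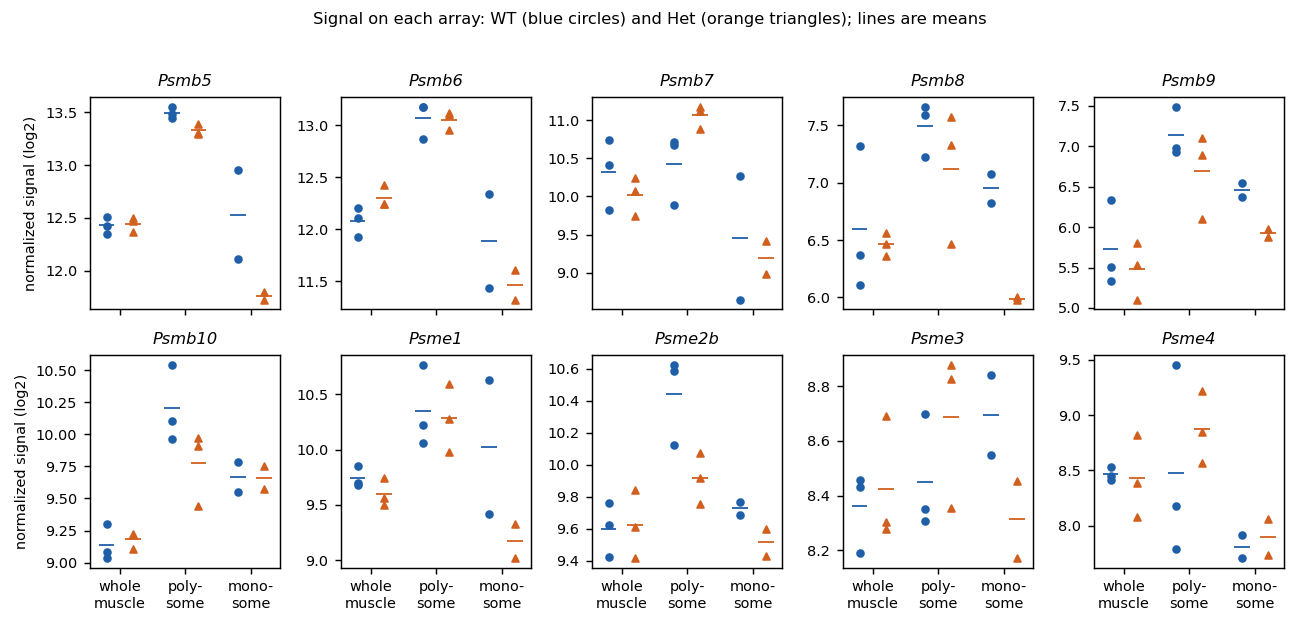
Log2 normalized signal (y axis, own range in each panel) of the catalytic subunits Psmb5 to Psmb7, their inducible counterparts Psmb8 to Psmb10 and the activators on each array, by kind of RNA (x axis). Blue circles are WT, orange triangles Het, and lines are group means; on polysomes all Het values of Psmb7 lie above and all Het values of Psmb5 and Psme2b below the WT values.

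Of the other beta subunits, Psmb1 and Psmb2 had the largest shift in loading between genotypes among the core members. Psmb1 lay at 9.59, 9.58 and 9.76 in WT and 9.19, 9.69 and 9.26 in Het whole muscle, and at 7.64, 8.85 and 8.12 in WT and 8.70, 8.97 and 9.17 in Het polysomes. The loading was below 0 in every mouse, and all Het mice were above all WT mice, narrowly. It was -1.44 ± 0.28 (adjusted p = 0.0176) in WT and -0.43 ± 0.28 (adjusted p = 0.346) in Het, a difference of 1.01 ± 0.40 (adjusted p = 0.269, exact permutation p = 0.1, the smallest that 3 against 3 mice can give).

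Psmb2 lay at 7.50, 7.91 and 7.62 in WT and 6.40, 7.70 and 7.94 in Het whole muscle, and at 5.67, 6.86 and 6.41 in WT and 7.10, 7.26 and 7.33 in Het polysomes. The polysome values did not overlap. Loading was -1.82, -1.05 and -1.22 in the WT mice and 0.71, -0.43 and -0.61 in the Het mice, so that the highest Het value came from the mouse with the lowest whole-muscle signal. The difference of 1.25 ± 0.44 did not pass (adjusted p = 0.222). Psmb3 and Psmb4, which have no proteolytic site, were loaded in both genotypes, by 1.27 ± 0.19 and 0.90 ± 0.21 in WT and by 1.01 ± 0.19 and 0.91 ± 0.21 in Het.

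The inducible subunits had mean loadings above 0 in both genotypes and mean polysome values below WT in Het, the latter without passing the test. Psmb8 lay at 7.32, 6.37 and 6.10 in WT and 6.56, 6.47 and 6.36 in Het whole muscle, and at 7.59, 7.66 and 7.22 in WT and 7.33, 6.46 and 7.57 in Het polysomes. WT mouse 1 was the highest in whole muscle and Het mouse 2 the lowest on polysomes, and the genotypes overlapped in both. On monosomes its values were 6.83 and 7.07 in WT and 5.98 and 6.0 in Het, a difference of -0.96 ± 0.42 (adjusted p = 0.139).

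Psmb9 lay at 6.34, 5.34 and 5.51 in WT and 5.81, 5.10 and 5.53 in Het whole muscle, and at 7.49, 6.98 and 6.93 in WT and 6.89, 6.11 and 7.10 in Het polysomes. Each mouse had more of it on polysomes than in whole muscle. Its loading of 1.41 ± 0.22 (2.65-fold, adjusted p = 0.00945) in WT was the second highest of all members, and it was 1.22 ± 0.22 (adjusted p = 0.0270) in Het. In Het whole muscle it was well above background on 2 of the 3 arrays.

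Psmb10 lay at 9.30, 9.04 and 9.08 in WT and 9.22, 9.22 and 9.10 in Het whole muscle, and at 10.54, 10.11 and 9.97 in WT and 9.97, 9.44 and 9.91 in Het polysomes. Loading was 1.24, 1.07 and 0.89 in the WT mice and 0.75, 0.22 and 0.80 in the Het mice. All Het mice were below all WT mice, a difference of -0.47 ± 0.31 (adjusted p = 0.459). The 3 inducible subunits differed between genotypes by -0.37 to -0.44 on polysomes and by -0.25 to 0.04 in whole muscle.

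Markers of immune cells, which carry much of the inducible form, also had lower means in Het polysomes. Of 13 immune markers on the array 11 were tested, and 11 of 11 were lower in Het polysomes (median -0.89) and 10 of 11 in Het whole muscle (median -1.12). In the Het minus WT difference in loading 7 of 11 were higher (median 0.12), where the 3 inducible subunits lay between -0.18 and -0.47. None of these differences between genotypes was called. Without WT mouse 2 the loading differences of Psmb8, Psmb9 and Psmb10 were -0.040, -0.066 and -0.47. The summed log2 level of the 13 immune markers ranged from 12.30 to 12.95 in WT and from 11.21 to 12.48 in Het polysomes, and from 11.75 to 12.79 in WT and from 11.54 to 11.96 in Het whole muscle. Of the 13, 8 were well above background on all 16 arrays and none was dim on all. Their part in the values of the inducible subunits was not tested. Of the other marker lists on polysomes, 5 of 5 fibroblast, 3 of 4 endothelial, 3 of 3 erythroid, 3 of 3 adipocyte and 1 of 2 Schwann cell markers were lower and 8 of 8 fibre markers higher in Het, with 0 called.

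The alpha ring, which gates the chamber, differed little in whole muscle and had higher means in Het polysomes for 6 of its 7 members. The 7 members differed between genotypes by -0.16 to 0.23 in whole muscle and by -0.05 to 0.81 on polysomes, with medians of 0.04 and 0.58, and none was called. Without the polysome array of WT mouse 2 the median on polysomes was 0.23, with 6 of 7 above 0 and Psma5 at -0.11. Psma1, Psma2 and Psma3 had all Het polysome values above all WT values. In each of the 3 the lowest polysome value was that of WT mouse 2, for instance 9.89 for Psma3 against 11.47 and 11.46 in the other WT mice and 11.78, 11.79 and 11.63 in Het. On monosomes the same mouse had 8.40 for Psma3, against 10.94 in the other WT mouse and 11.27 and 10.90 in Het.

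Psma6 stood apart from the rest of the ring in loading. It lay at 10.37, 10.69 and 10.63 in WT and 10.50, 10.75 and 10.55 in Het whole muscle, and at 8.83, 10.001 and 9.41 in WT and 9.97, 10.18 and 10.52 in Het polysomes. Its loading was below 0 in all 6 mice and was -1.15 ± 0.24 (adjusted p = 0.0209) in WT and -0.38 ± 0.24 in Het. Psma5 was among the 3 members with the highest Het minus WT values in whole muscle, at 9.28, 9.45 and 9.72 in WT and 9.86, 9.72 and 9.58 in Het, which overlapped (0.23 ± 0.27). On polysomes it lay at 10.35, 9.36 and 9.85 in WT and 10.22, 9.97 and 9.78 in Het.

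The ATPases of the base, which unfold substrates, had loadings above 0 in all 6 mice, with the exception of Psmc6. Psmc5 lay at 10.26, 10.10 and 9.87 in WT and 10.31, 10.09 and 9.95 in Het whole muscle, and at 11.26, 10.76 and 11.21 in WT and 11.11, 11.42 and 11.16 in Het polysomes. All polysome arrays were above all whole-muscle arrays. Its loading was 1.0 ± 0.23 (adjusted p = 0.0247) in WT and 1.11 ± 0.23 (adjusted p = 0.0349) in Het, where it was the second highest of the members measured on every array. Psmc1 was loaded by 0.76 ± 0.21 and 0.99 ± 0.21, also called in both, and Psmc3 by 0.69 ± 0.20 (adjusted p = 0.0445) and 0.71 ± 0.20 (adjusted p = 0.0665). Psmc2 was among the 3 highest Het minus WT values in whole muscle, at 10.48, 10.51 and 10.84 in WT and 10.88, 10.90 and 10.74 in Het (0.23 ± 0.22), and lay at 11.35, 10.68 and 11.16 in WT and 11.34, 11.37 and 11.46 in Het polysomes.

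Psmc6 lay at 8.21, 8.35 and 8.31 in WT and 8.58, 8.31 and 8.07 in Het whole muscle, and at 7.79, 5.91 and 7.88 in WT and 8.48, 8.66 and 8.50 in Het polysomes. All Het polysome values were above all WT values, and WT mouse 2 was far below the other 2 WT mice. The difference on polysomes was 1.35 ± 0.43 (adjusted p = 0.250), and in loading 1.33 ± 0.58 (adjusted p = 0.301). Without WT mouse 2 these were 0.71 and 0.66, and Psmb2, at 1.19, was then the highest on polysomes of the members measured on every array. On monosomes it was 7.31 in WT mouse 1, 2.27 in WT mouse 2, where it was not well above background, and 7.56 and 7.68 in Het.

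Among the non-ATPase subunits of the cap, Psmd3 had the highest loading in both genotypes and Psmd14 the lowest loading but 1 in each, among members measured on every array. Psmd3, a scaffold of the lid, lay at 11.52, 11.52 and 11.24 in WT and 11.47, 11.48 and 11.37 in Het whole muscle, and at 13.09, 12.66 and 12.90 in WT and 12.58, 12.63 and 12.80 in Het polysomes. Its loading was 1.45 ± 0.21 (2.74-fold, adjusted p = 0.00765) in WT and 1.23 ± 0.21 (2.35-fold, adjusted p = 0.0231) in Het, and every mouse was above 1. Psmd4, a ubiquitin receptor, was loaded by 0.94 ± 0.20 and 0.88 ± 0.20.

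Psmd14, which removes ubiquitin chains as substrates enter, lay at 7.21, 6.98 and 7.34 in WT and 6.49, 7.10 and 6.72 in Het whole muscle, and at 5.46, 6.82 and 4.99 in WT and 5.98, 6.36 and 6.55 in Het polysomes. Its loading was -1.76, -0.17 and -2.35 in the WT mice and -0.51, -0.73 and -0.18 in the Het mice, which overlapped. It was called in WT (-1.43 ± 0.40, adjusted p = 0.0431) and not in Het (-0.47 ± 0.40, adjusted p = 0.465), and the difference of 0.96 ± 0.56 did not pass (1.59 without WT mouse 2). Its whole-muscle difference of -0.41 ± 0.40 was the lowest of the members measured on every whole-muscle array.

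Psmd6, a lid subunit, lay at 10.28, 10.48 and 10.58 in WT and 10.51, 10.64 and 10.50 in Het whole muscle, and at 9.43, 9.40 and 10.05 in WT and 10.37, 10.49 and 10.61 in Het polysomes. The polysome values did not overlap, by 0.87 ± 0.22 (adjusted p = 0.207), the smallest adjusted p of a member in that comparison. Psmd8, also of the lid, lay at 10.54, 10.15 and 10.32 in WT and 9.93, 9.97 and 9.94 in Het whole muscle, where all Het values were below all WT values (-0.39 ± 0.43, adjusted p = 0.907). On polysomes it spread from 8.63 and 9.41 in WT mice 1 and 3 to 10.84 in WT mouse 2, with 9.61, 9.80 and 10.07 in Het.

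Of the chaperones that assemble the complexes, Psmd5 and Psmg4 differed in opposite directions in whole muscle, without passing the test. Psmd5, which holds ATPases before they join the base, lay at 6.76, 6.27 and 6.33 in WT and 6.21, 5.91 and 6.03 in Het whole muscle, and at 6.10, 6.34 and 5.94 in WT and 6.31, 6.44 and 6.31 in Het polysomes. Its Het values were all below WT in whole muscle (-0.41 ± 0.21, adjusted p = 0.632), and its loading was higher in every Het mouse than in every WT mouse (0.63 ± 0.32, adjusted p = 0.369). Psmg4, which helps to build the alpha ring, went the other way. It lay at 6.18, 5.84 and 6.26 in WT and 6.60, 6.66 and 6.05 in Het whole muscle, and at 6.61, 6.42 and 5.87 in WT and 6.23, 6.12 and 5.05 in Het polysomes.

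Loading of Psmg4 was 0.42, 0.58 and -0.39 in WT mice and -0.36, -0.54 and -0.99 in Het mice, which overlapped by the third WT mouse. The difference of -0.83 ± 0.37 was the lowest of the members measured on every array (adjusted p = 0.313). Psmg3, its partner, was loaded by 0.94 ± 0.22 in WT (adjusted p = 0.0270). Psmd10 was well above background on 1 of the 3 Het whole-muscle arrays, and its whole-muscle difference of -0.96 ± 0.48 and loading difference of 1.39 ± 0.65 rest on those dim spots.

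Among the activators none differed between genotypes by the test. Psme1, which with Psme2 forms the interferon-induced activator, lay at 9.85, 9.68 and 9.70 in WT and 9.56, 9.50 and 9.74 in Het whole muscle, and at 10.06, 10.77 and 10.22 in WT and 10.28, 9.98 and 10.59 in Het polysomes. The loading was above 0 in all 6 mice, with 0.61 ± 0.24 (adjusted p = 0.107) in WT and 0.68 ± 0.24 (adjusted p = 0.112) in Het. On monosomes its values were 9.42 and 10.63 in WT and 9.02 and 9.33 in Het.

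The Psme2b probe lay at 9.62, 9.42 and 9.76 in WT and 9.61, 9.84 and 9.42 in Het whole muscle, and at 10.58, 10.62 and 10.12 in WT and 10.07, 9.76 and 9.92 in Het polysomes. Het polysome values were all below WT values, by -0.53 ± 0.22 (adjusted p = 0.303), the lowest difference of the members on polysomes. Its loading of 0.84 ± 0.25 in WT was called by a narrow margin (adjusted p = 0.0497), and a second probe of the same name gave -1.14, 0.66 and -1.11 in the WT mice, so that the loading of this transcript was not settled by these probes. Its monosome values were 9.77 and 9.69 in WT and 9.60 and 9.43 in Het.

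Psme3, the nuclear activator, lay at 8.19, 8.46 and 8.43 in WT and 8.28, 8.30 and 8.69 in Het whole muscle, and at 8.35, 8.70 and 8.31 in WT and 8.35, 8.88 and 8.83 in Het polysomes, with 8.84 and 8.55 in WT and 8.17 and 8.45 in Het monosomes. No kind of RNA set it apart, and its loading was 0.09 ± 0.21 in WT and 0.26 ± 0.21 in Het. Psme4, a large activator that acts on histones, lay at 8.41, 8.53 and 8.45 in WT and 8.08, 8.38 and 8.82 in Het whole muscle, at 7.79, 9.45 and 8.18 in WT and 8.57, 8.84 and 9.22 in Het polysomes, and at 7.71 and 7.91 in WT and 7.73 and 8.06 in Het monosomes. WT mouse 2 was the highest on polysomes and the other 2 WT mice the lowest.

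Psmf1, the inhibitor, had the lowest loading of all in WT. Its whole-muscle values were 5.03, 4.73 and 4.97 in WT and 4.29, 4.88 and 4.33 in Het, and its polysome values 1.70, 3.30 and 3.30 in WT and 4.34, 4.20 and 4.23 in Het. It was well above background on all 3 Het polysome arrays and on none of the 3 WT polysome arrays. It was therefore at least 1.86-fold higher in Het than in WT polysomes (adjusted p = 0.213), and in WT at least 2.92-fold higher in whole muscle than on polysomes (adjusted p = 0.0138). Both p-values, and its place among the members called lower, come from WT polysome spots not well above background, so that the bounds alone are measured. It was well above background on 1 of 3 Het whole-muscle arrays and on none of the 4 monosome arrays.

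No member passed an adjusted p of 0.05 in whole muscle, on polysomes or in loading, where 0.0101%, 0% and 0% of all 19814 probes did, and the smallest adjusted p of a member was 0.626, 0.207 and 0.155. At an unadjusted p below 0.05 there were 0, 8 and 4 members (0%, 17.4% and 8.7%), against 8.5%, 15.3% and 17% of all probes. The study's methods give another threshold for polysomal mRNA, a log2 difference beyond 1 with an unadjusted p below 0.05. By it there were 0 members in whole muscle, 2 on polysomes (Psmc6 and Psmf1) and 3 in loading (Psmb1, Psmb2 and Psmf1). Of all probes 5.46%, 5.51% and 13.8% passed, so that the members' share was below that of all probes in each. Psmf1 counts through WT polysome spots not well above background. Its bound on polysomes, at least 1.86-fold, falls short of a log2 difference of 1.

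The median Het minus WT difference of the members was 0.01 in whole muscle, 0.17 on polysomes and 0.12 in loading, and that of all probes was -0.03, 0.05 and 0.17. The polysome median was 0.0066 on slide 1 alone, and the whole-muscle median 0.12 with scaling to the 75th percentile. In whole muscle 1 member had all Het above all WT values and 2 all below (Psmd5 and Psmd8), against 5.09% and 8.46% of all probes. On polysomes 12 members were above without overlap (Psma1, Psma2, Psma3, Psmb2, Psmb7, Psmc4, Psmc6, Psmd6, Psmd10, Psmd12, Psmf1 and Psmg2) and 3 below (Psmb3, Psmb5 and Psme2b), against 13.2% and 8.6% of all probes. A second probe of Psmd12 differed in the opposite direction there. In loading 9 were above (Psma6, Psmb1, Psmb2, Psmc4, Psmc6, Psmd5, Psmd6, Psmd12 and Psmf1) and 2 below (Psmb3 and Psmb10), against 13.6% and 11.8%. The Het whole-muscle arrays were dimmer than all WT whole-muscle and all Het polysome arrays, and the part of array brightness in the loading differences was not tested beyond a fit with brightness as a term, where the members' median loading difference was 0.31 with 0 members called.

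**Figure D4:**
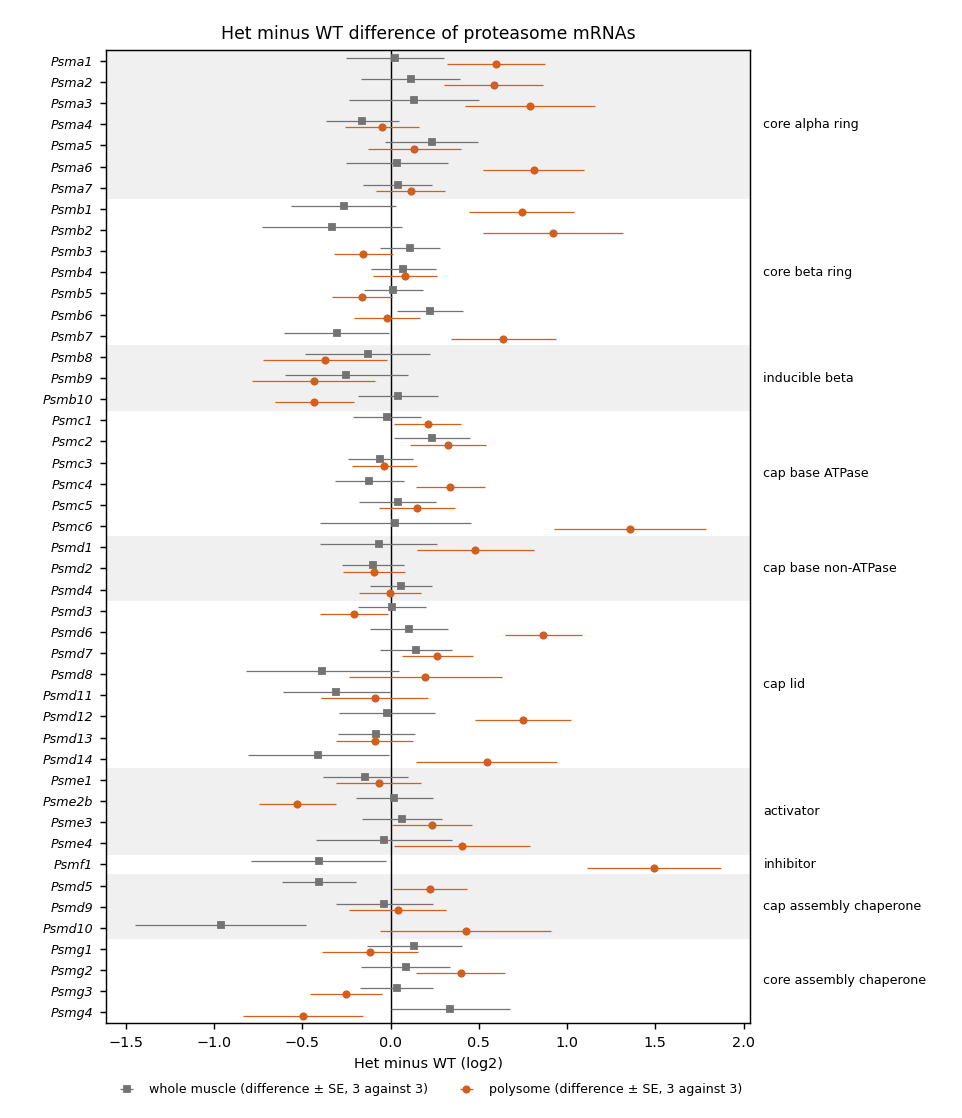
Het minus WT difference in log2 normalized signal (x axis) of each tested member (y axis, grouped by class) in whole muscle (grey squares) and on polysomes (orange circles), 3 against 3 mice, with limma standard errors. Whole-muscle differences lie between -0.41 and 0.34 for all members but Psmd10, and polysome differences between -0.53 and 1.35 for all but Psmf1, which was dim on WT polysomes; none passed an adjusted p of 0.05.

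On monosomes, with 2 mice of each genotype, no member was called, against 0.499% of all 20251 probes. With no filter, the deposited log2 values or normexp background 2 to 4 were called, all lower (4.08% to 8.7%), against 0.58% to 4.01% of all probes. A fit without 1 of these mice leaves a single array in its group, so that calls from such fits are not given. At an unadjusted p below 0.05 there were 13 members (28.3%), against 33% of all probes, and the smallest adjusted p of a member was 0.0884. The means of the 7 alpha subunits differed by 0.00 to 1.42, all above 0, but against WT mouse 1 alone 3 of 7 were above 0, with a median of -0.0073. The median of the beta ring was -0.42, that of the ATPases -0.33 and that of the lid -0.17, and against WT mouse 1 alone these were 0.029, -0.26 and -0.088. The inducible beta subunits (-0.53) and the other base subunits (-0.82) were at -0.44 and -0.62 against WT mouse 1 alone, with 0 of 3 above 0 in each. An exact permutation test of 2 against 2 was not used, since it cannot pass 0.05.

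The other genes of the pathway, which supply ubiquitin, deliver substrates, assemble the core or control subunit transcription, were read for the same comparisons. Of 26 on the array 25 were tested, all but Txnl1, and none differed between genotypes at an adjusted p of 0.05 in whole muscle, on polysomes or in loading. In WT loading 1 of the 25 was called higher, Shfm1, which encodes the small lid subunit Sem1 (0.85, adjusted p = 0.0452). Called lower was 1, Ngly1, a glycanase that processes Nfe2l1 (-1.50, adjusted p = 0.0467, with the polysome spot of WT mouse 2 not well above background). Of all probes 10.7% were called higher and 10.9% lower, so that neither share of the 25 was above that of all probes. In Het loading 0 were called, against 3.72% higher and 4.28% lower of all probes. Pomp, the maturation factor of the core, had a loading of 0.75 in WT and 0.72 in Het, and Adrm1, a ubiquitin receptor of the cap, 0.57 and 0.78, with no call. Nfe2l1 itself was at -0.17 and -0.04. Against monosomes 22 of the 25 were higher on polysomes (median 0.99, 0 called), the highest being Ubqln1 (1.67) and Vcp (1.67), and Nfe2l1 was at -0.50.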

How the data were processed

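Scanner files of 16 one-colour arrays (3 WT and 3 Het whole-muscle, 3 and 3 polysome, 2 and 2 monosome) were used, with all groups taken from the sample labels. The deposited files hold Feature Extraction spot intensity after background subtraction, with a flag for spots well above background. The authors' deposited table of log2 values has the rank order of the raw median signal and was used as an alternative only. Flagged outlier spots were left out, spots of a probe averaged on the log2 scale, and all 16 arrays quantile-normalized together, after the study's methods. Probes entered the tests where all arrays of 1 group or more were flagged as well above background. limma 3.58.1 (R 4.3.3) was fitted to all tested probes, with Benjamini-Hochberg adjustment over all of them, on the 12 whole-muscle and polysome arrays (4 groups, 1 fit), on 6 per-mouse ratios of polysome to whole muscle, on all 16 arrays (monosome) or on 4 per-mouse ratios of polysome to monosome. Fits were tested on simulated data.

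Ratios pair the RNAs of 1 mouse by the replicate number in the labels, since the series' design takes every kind of RNA from each mouse; that equal numbers mark 1 mouse is read from the titles and is not stated. Deviations from group means of whole-muscle and polysome arrays of the same mouse correlated at 0.0464 to 0.481 over all probes. "At least" folds set the brighter group's mean over the dim group's mean of the higher of its own value and the lowest value well above background on that array. The number of arrays limits the precision. Named in full were Psmb5 to Psmb10, the activators and, in each of 5 comparisons, the highest and lowest members measured on every array compared (3 each for the differences between genotypes, 2 each for the loadings); Psmf1, Psma3 and Psmd10 were added after their values were seen. Members, lists and rules were chosen with earlier results of these data known.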

Additional observations from a re-analysis of the deposited data

How the results depend on the processing

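Settings changed 1 at a time kept the direction of every called member, and Het minus WT in whole muscle, on polysomes and in loading had 0 called members under each. Of all probes at most 0.177% were called in whole muscle and at most 0.00871% on polysomes. In the loading difference 5.36% of all probes were called among those well above background on every array, 2.05% with the authors' values and 1.86% with normexp background. With the mouse as a random block the members' median differences were 0.01 (whole muscle), 0.17 (polysome) and -0.12 (monosome). With the arrays unpaired, without the replicate block, 20 members were called in WT loading, 10 in Het loading and 34 in polysome minus monosome. These were 43.5%, 21.7% and 73.9% of members, against 17.3%, 9.32% and 26% of all probes. The paired ratios gave 19, 8 and 0 (41.3%, 17.4% and 0%, against 21.6%, 8% and 0%). Scaling by the 75th percentile moved the median to 0.12 (whole muscle), 0.27 (Het loading) and -0.028 (monosome). It gave 1 called in Het loading (2.17%, against 10.1% of all probes), where the main setting had 17.4% against 8%. In polysome minus monosome it gave 38 (82.6%, against 25.2%). Normexp background gave medians of 0.43 (Het loading), -0.031 (monosome) and 0.83 (polysome minus monosome) with 18, 4 and 41 called. These were 39.1%, 8.7% and 89.1% of members, against 14.7%, 3.36% and 24.9% of all probes. The authors' values gave medians of 0.15 (WT loading), -0.071 (monosome) and 0.85 (polysome minus monosome). With them 17 were called in Het loading, 3 on monosomes and 38 in polysome minus monosome (37%, 6.52% and 82.6%, against 14.1%, 4.01% and 25.9% of all probes). No filter gave 9 called in WT loading, 2 in Het loading and 2 on monosomes (18.4%, 4.08% and 4.08%, against 3.38%, 0.563% and 0.58% of all probes). With probes well above background on every array, 15 were called in Het loading (34.9%, against 22.8% of all probes) and 36 in polysome minus monosome (92.3%, against 51.5%). The monosome median was then -0.058. Averaging a gene's probes gave medians of 0.14 (WT loading) and -0.13 (monosome) and 22 called in polysome minus monosome (47.8%, against 8.69% of all). Slide as a term gave 12, 0 and 35 called in WT loading, Het loading and polysome minus monosome (26.1%, 0% and 76.1%, against 13.3%, 2.12% and 33.5% of all probes). Slide 1 alone gave a polysome median of 0.0066, slide 2 alone a WT loading median of 0.36, and each 0 called in both loadings. Brightness as a term gave medians of 0.31 (loading difference), -0.093 (monosome) and 1.22 (polysome minus monosome). It gave 3 called in WT loading (6.52%, near the 4.81% of all probes) and 0 in Het loading (against 0% of all probes). Leaving out 1 mouse gave 2 to 17 called in WT loading (4.35% to 37%, against 4.85% to 17.8% of all probes) and 0 to 14 in Het loading (0% to 30.4%, against 0% to 16.9%). The medians were then 0.26 to 0.35 (WT loading), 0.46 to 0.58 (Het loading), -0.31 to -0.084 (monosome) and 1.06 to 1.15 (polysome minus monosome). In the last 2 comparisons such a fit leaves 1 value in a group. The cause of each change was not tested. Dim spots limit Psmf1, Psmd10 and, on monosomes, Psmd14.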
